A study of Mus musculus with 16 samples.

Results

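The proteasome genes described here are the 45 genes whose symbols begin with Psm followed by a subunit letter and number, taken from a count table of 13474 genes. The 3 inducible catalytic genes Psmb8, Psmb9 and Psmb10 were left out. The members fall into 8 alpha ring genes, 7 beta ring genes, 6 ATPase genes and 11 non-ATPase genes of the regulatory particle. The other members are 3 assembly chaperones of the regulatory particle, 4 assembly chaperones of the core particle, and 6 activators or inhibitors. All 45 were in the table and none was lost to a filter on low counts. Psmb11, a beta gene of the thymus, was not analysed here.

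The cells were C57BL/6 mouse bone marrow mesenchymal stem/progenitor cells (MSPCs), adherent marrow cells that can form bone, at passage 5 to 10. They were wild type (WT) or labelled knockout (KO) for Zfp384, the gene of the zinc finger transcription factor Nmp4. WT and KO cells at day 3 had been seeded at 10000 cells per well (25 per mm2) and grown in non-differentiating Mesencult medium. WT and KO cells at day 7 had been seeded at 25000 cells per well (62 per mm2) in α-MEM, with 5 µg/mL ascorbic acid, 10 nM dexamethasone and 10 mM glycerol 2-phosphate added after 48 hours, and were early osteogenic cultures. Each of the 4 groups had 4 libraries, which the study calls technical replicates of 1 biological replicate. P-values therefore cover variation among wells only, and genotype cannot be told apart from culture. A difference between days cannot be told apart from seeding density, medium or supplements.

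The proteasome degrades proteins tagged with ubiquitin. Its core particle is a barrel of stacked alpha and beta rings with the catalytic beta subunits inside, and its regulatory particle holds a ring of ATPases that unfolds substrates and non-ATPase subunits that bind and remove ubiquitin. Dedicated chaperones, which are not part of the finished enzyme, assemble both particles. Other activators can cap the core particle in place of the regulatory particle, and in interferon-treated or immune cells inducible catalytic subunits replace the standard ones. In bone, drugs that inhibit the proteasome are known to act on bone-forming cells.

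The 16 libraries held 31285188 to 47635039 counts each, and proteasome genes took between 0.392% and 0.591% of the counts of a library. Zfp384 RNA was higher, not lower, in the libraries labelled KO, by a log2 fold change of 0.16 ± 0.04 (SE) at day 3 and 0.41 ± 0.04 at day 7, so it did not check the label, which is used as given. Of the 12 stromal progenitor markers all were measured, with Col1a1 and Col1a2 among the most abundant, while Thy1 was at a mean of 0.0877 CPM or less in both groups labelled KO and Lepr at 0.0520 CPM in WT at day 3. Of 17 macrophage and myeloid markers 14 were measured. Their summed level was 157 to 176 CPM in WT at day 3, 36.6 to 44.3 CPM in KO at day 3, 176 to 201 CPM in WT at day 7 and 19.6 to 23.7 CPM in KO at day 7. No measured one had a group mean of 0, the lowest being Ptprc at 0.0614 CPM in KO at day 7. CPM here means counts per 1000000, with library sizes scaled by trimmed mean of M values (TMM). In bulk RNA, fewer cells of a type and less RNA per cell cannot be told apart.

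Between genotypes, proteasome genes were divided, with most regulatory particle genes higher in KO at day 3, most core particle genes lower under TMM (though higher with the authors' library sizes), and the activator genes Psme1 and Psme2 far lower in KO. At day 3, 41 members were called (86.4% of all genes were), and 24 were higher in KO at an adjusted p under 0.05 against 43% of all genes, and 17 were lower against 43.4%. At day 7, 38 members were called (86% of all genes), of which 16 were higher against 41.7% of all genes and 22 were lower against 44.3%. Counted apart from the test, the KO libraries at day 3 all lay above the WT libraries for 24 members (41.1% of all genes) and all below for 17 (41.3%). At day 7 the counts were 13 (38.5%) and 21 (41.4%). At both days alike, 16 members were higher in KO (32% of all genes) and 16 lower (33.9%). These shares stood near the background, so the counts single out no direction for the proteasome genes between genotypes. Changes of at least 1.5-fold were fewer: 11 members were higher by that much at day 3 (22.4% of all genes) and 5 lower (26.4%), and at day 7 the counts were 3 (23.5%) and 6 (26.6%). The median log2 fold change of the members was 0.10 at day 3 and -0.09 at day 7, beside -0.00 and -0.03 for all genes. The authors' own library sizes moved the median of all genes to 0.49 at day 3 and 0.55 at day 7. With them 38 members were higher and 4 lower at day 3, and 34 and 5 at day 7. Of all 13474 genes, 8677 were then higher and 3220 lower at day 3, and 9087 and 2969 at day 7. Relative to the median of all genes, the members' median was 0.11 at day 3 and -0.06 at day 7 under both scalings.

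**Figure D1:**
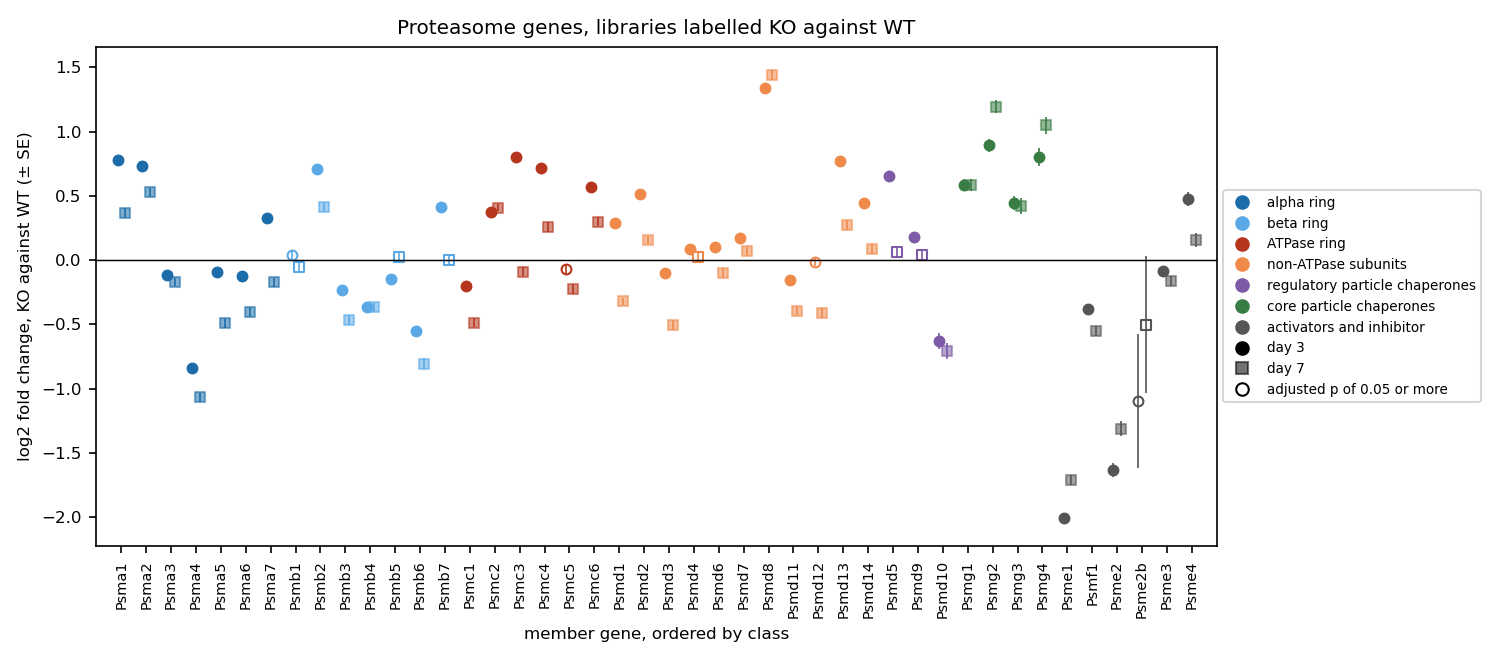
Log2 fold change of KO against WT (vertical axis, ± SE) for 44 members in order of class, with circles for day 3 and squares for day 7, filled where the adjusted p was under 0.05. Psma8 is left off because its fitted value rests on counts near 0. Under the TMM scaling shown, the core particle chaperones lie above 0 and Psme1 and Psme2 lie lowest at both days, and both statements hold with the authors' library sizes.

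Between days the members moved together, and downward. From day 3 to day 7, 36 members fell in WT, where 34.9% of all genes fell, and 39 fell in KO, where 39.3% of all genes fell. In WT only Psma8 rose (32.3% of all genes rose), and in KO only Psme1, Psme2, Psmg2 and Psmg4 rose (40.6% of all genes rose). Both genotypes shared 35 of the falling members, against 23.6% of all genes falling in both. Counted apart from the test, all day 7 libraries lay below all day 3 libraries for 36 members in WT (32.8% of all genes) and 39 in KO (35.7%), and above for 1 (30.3%) and 3 (36.1%). In all, 37 members were called in WT (67.3% of all genes) and 43 in KO (79.9%). The median change was -0.26 in WT and -0.39 in KO, beside -0.01 and 0.01 for all genes. None of the falls in WT reached 1.5-fold (9.45% of all genes fell by that much), whereas 16 of those in KO did (17.3%). The genotype by day interaction was called for 33 members (66% of all genes), being negative for 28 members, against 33.5% of all genes, and positive for 5, against 32.5%. It was negative by at least 1.5-fold for Psmc3, Psmd1 and Psmd5 (13.2% of all genes). For 25 members a fall in both genotypes went with a negative interaction (13.9% of all genes). The 2 day comparisons share no library, but the interaction is built from both.

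The summed level showed the same course. All members together held 5393 ± 29.6 CPM (mean ± SD, n = 4) in WT at day 3 and 4500.1 ± 111 CPM at day 7. In KO they held 5955 ± 61.2 CPM at day 3 and 4133 ± 52.1 CPM at day 7. The KO libraries were thus above every WT library at day 3 (5880.1 to 6029.6 against 5372 to 5436 CPM) and below every one at day 7 (4098 to 4209 against 4391 to 4626 CPM) under TMM, whereas with the authors' library sizes most members were higher at day 7 too. The core particle sum hardly differed at day 3, with 1939 ± 13.8 CPM in WT and 1936 ± 14.4 CPM in KO, and at day 7 it was 1605 ± 56.1 and 1377 ± 25.6 CPM. The regulatory particle sum was 2661 ± 17.7 CPM in WT and 3355 ± 46.2 CPM in KO at day 3, and 2168 ± 43.1 and 2196 ± 34.0 CPM at day 7. All 8 osteoblast markers rose with day in both genotypes, as did 21.8% of all genes. Their summed level was 1446 to 1571 CPM in WT at day 3 and 2827 to 3402 CPM in WT at day 7. In KO it was 818 to 891 CPM at day 3 and 6913 to 9176 CPM at day 7. The part of these markers in the fall of proteasome genes was not tested.

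**Figure D2:**
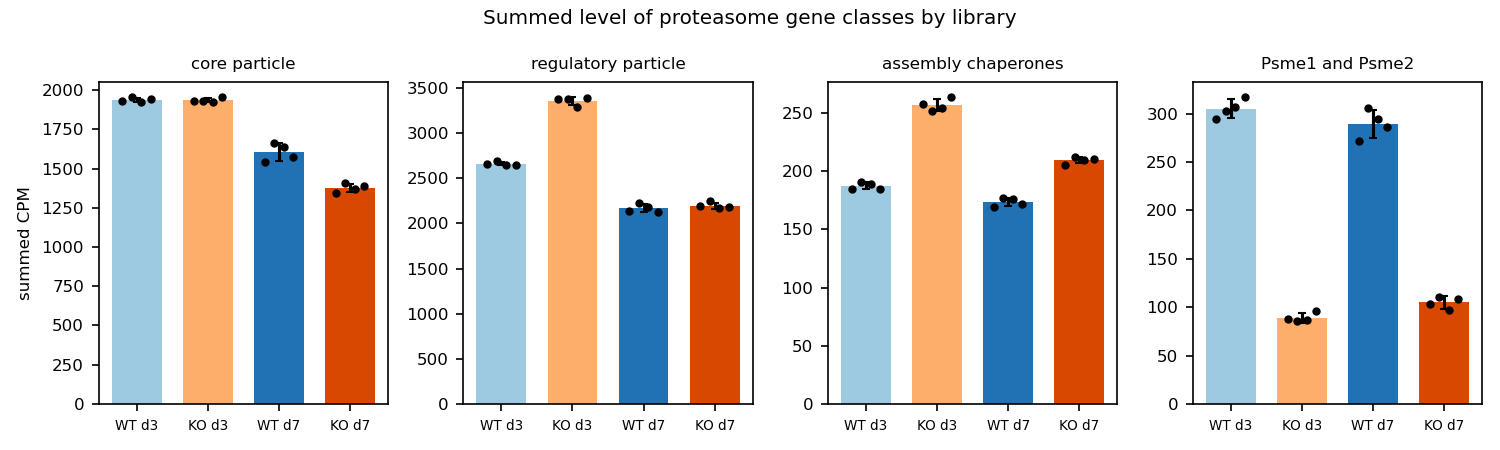
Summed CPM (vertical axis, from 0) of core particle, regulatory particle, assembly chaperone and Psme1 plus Psme2 genes in the 4 groups, with bars for the mean, error bars for the SD and points for the 4 libraries. At day 3 the core sums of 1939 and 1936 CPM lie level while the regulatory sum is 2661 CPM in WT and 3355 CPM in KO under the TMM scaling.

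The core particle holds the catalytic chambers. Of its 15 genes, 5 were higher and 9 lower in KO at day 3, beside 43% and 43.4% of all genes. With the authors' library sizes the split turned to 12 and 2, beside 8677 and 3220 of all 13474 genes. At day 7, 3 were higher and 9 lower, beside 41.7% and 44.3% of all genes. With those sizes they were 11 and 3, beside 9087 and 2969 of all 13474 genes. Psma1, Psma2 and Psmb2, which encode structural alpha and beta subunits, were higher at both days, by 0.78, 0.73 and 0.71 on the log2 scale at day 3 and 0.36, 0.53 and 0.41 at day 7, though relative to their chromosomes none was called higher at both days. On that scale Psma2 and Psmb2 were not called at day 3 and were lower at day 7 (-0.18 and -0.20), and Psma1 was not called at day 7 (0.07). From day 3 to day 7, 13 core genes fell in WT (all but Psmb1 and Psma8) and 14 fell in KO (all but Psma8). Of all genes, 34.9% fell in WT and 39.3% in KO. Psmb1 changed by 0.04 ± 0.03 and -0.05 ± 0.03 between genotypes and by -0.03 ± 0.03 over days in WT, none of which passed the test under TMM. With the authors' library sizes Psmb1 was called higher in KO at both days (0.54 and 0.53). Relative to the chromosome median it was not called at day 3 (0.05) and was lower at day 7 (-0.18).

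The 3 standard catalytic genes took 3 different courses. Promoter sequences of the first pair are shown because each carries, in capitals, the core of an antioxidant response element, the kind of site through which the factors Nfe2l1 and Nfe2l2 are known to act on proteasome genes. The sequences come from RefSeq for GRCm38.p6, run 5′ to 3′ on the strand of the gene, and span 250 bases before to 50 bases after the annotated start. That of Psmb5 lies at chr14:54617946-54618245 on the minus strand, and that of Psmb6 at chr11:70525107-70525406 on the plus strand.
Psmb5: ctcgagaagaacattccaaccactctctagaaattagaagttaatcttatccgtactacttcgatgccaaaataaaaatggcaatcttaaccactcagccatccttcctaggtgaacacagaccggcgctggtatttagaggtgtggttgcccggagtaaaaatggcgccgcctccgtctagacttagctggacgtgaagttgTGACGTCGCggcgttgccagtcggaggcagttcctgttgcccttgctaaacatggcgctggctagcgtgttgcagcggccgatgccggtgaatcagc
Psmb6: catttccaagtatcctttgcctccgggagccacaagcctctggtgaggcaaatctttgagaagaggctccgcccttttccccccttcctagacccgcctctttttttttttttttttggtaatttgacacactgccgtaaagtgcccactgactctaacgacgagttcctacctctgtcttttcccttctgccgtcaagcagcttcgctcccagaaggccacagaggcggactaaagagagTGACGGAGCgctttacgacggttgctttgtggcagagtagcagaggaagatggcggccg
The first base of the motif lies 47 bases before the start in Psmb5 and 9 bases before it in Psmb6.

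Gene spans are given on mm10. Psmb5 (chr14:54614120-54617995, minus strand), which encodes the chymotrypsin-like subunit and the main target of proteasome inhibitor drugs, read 115, 118, 112 and 117 CPM in WT and 109, 103, 101 and 104 CPM in KO at day 3. The day 7 libraries read 88.2, 94.8, 89.98 and 90.8 CPM in WT and 92.8, 97.5, 83.5 and 96.9 CPM in KO. The groups did not overlap at day 3, where WT was higher, and overlapped at day 7. The log2 fold change of KO against WT was -0.15 ± 0.04 at day 3 (adjusted p = 0.00131) and 0.03 ± 0.04 at day 7 (adjusted p = 0.545). With the authors' library sizes these values turned to 0.35 and 0.61, both called higher. Relative to the chromosome median they were 0.02, not called, and 0.18 (adjusted p = 0.000253). Psmb5 fell over days by 0.35 on the log2 scale in WT and by 0.17 in KO, and the interaction was 0.17 ± 0.06 (adjusted p = 0.00897).

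Psmb6 (chr11:70525357-70527858, plus strand), which encodes the caspase-like subunit, read 188, 198, 193 and 193 CPM in WT and 139, 133, 126 and 129 CPM in KO at day 3. By day 7 the values were 153, 171, 163 and 159 CPM in WT and 91.1, 99.5, 86.2 and 93.1 CPM in KO. Every KO library lay below every WT library of the same day. The difference was -0.55 ± 0.04 at day 3 (adjusted p = 1.95e-13) and -0.80 ± 0.04 at day 7 (adjusted p = 4.03e-17). With the authors' library sizes the day 3 value shrank to -0.05 (adjusted p = 0.301) and the day 7 value to -0.22. Relative to the chromosome median the difference was -0.09 at day 3 (adjusted p = 0.0466) and -0.36 at day 7.

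Psmb7 (chr2:38588046-38643906, minus strand), which encodes the trypsin-like subunit, read 135, 135, 131 and 135 CPM in WT and 176, 176, 182 and 179 CPM in KO at day 3. Values at day 7 were 106, 112, 112 and 107 CPM in WT and 107, 109.9, 113 and 109 CPM in KO. KO was higher without overlap at day 3, and the groups lay over each other at day 7 on this scale. KO differed from WT by a log2 fold change of 0.41 ± 0.03 at day 3 (adjusted p = 2.55e-13) and 0.00 ± 0.03 at day 7 (adjusted p = 0.916), with an interaction of -0.41 ± 0.04 (adjusted p = 2.05e-09). At day 7 Psmb7 was called higher with the authors' library sizes (0.58) and lower with total counts alone (-0.12). It fell by 0.30 on the log2 scale over days in WT and by 0.71 in KO.

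Psma4 (chr9:54950859-54958030, plus strand), an alpha ring gene, had the lowest KO against WT differences of the core genes apart from Psma8. It read 139.9, 142, 141 and 144 CPM in WT and 78.4, 79.0, 79.1 and 80.6 CPM in KO at day 3. At day 7 it read 111, 119, 117 and 116 CPM in WT and 54.6, 52.4, 59.6 and 54.4 CPM in KO. The groups stood far apart at both days, every KO library lying low. The difference was -0.84 ± 0.04 at day 3 (adjusted p = 5.14e-19) and -1.07 ± 0.04 at day 7 (adjusted p = 2.48e-21), and it stayed at -0.34 and -0.49 with the authors' library sizes.

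Psma8 (chr18:14706151-14762299, plus strand), an alpha ring gene known mainly from the testis, stood near the lower limit of detection. Its counts in WT were 21, 19, 17 and 18 at day 3 and 34, 43, 28 and 25 at day 7. In KO they were 0 in each of the 4 libraries at day 3, and 0, 0, 2 and 0 at day 7. Summed over a group, 75 counts in WT stood against 0 in KO at day 3, at least 20.1-fold lower in KO with a floor of 3 counts over the group. At day 7, 130 counts stood against 2, a ratio of 63.5 with a 95% counting interval of 17.2 to 529.9. The interval and the floor cover counting error only. In WT Psma8 was higher at day 7, at 0.707 to 1.14 CPM against 0.346 to 0.531 CPM (log2 fold change 0.98 ± 0.26, adjusted p = 0.00179).

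**Figure D3:**
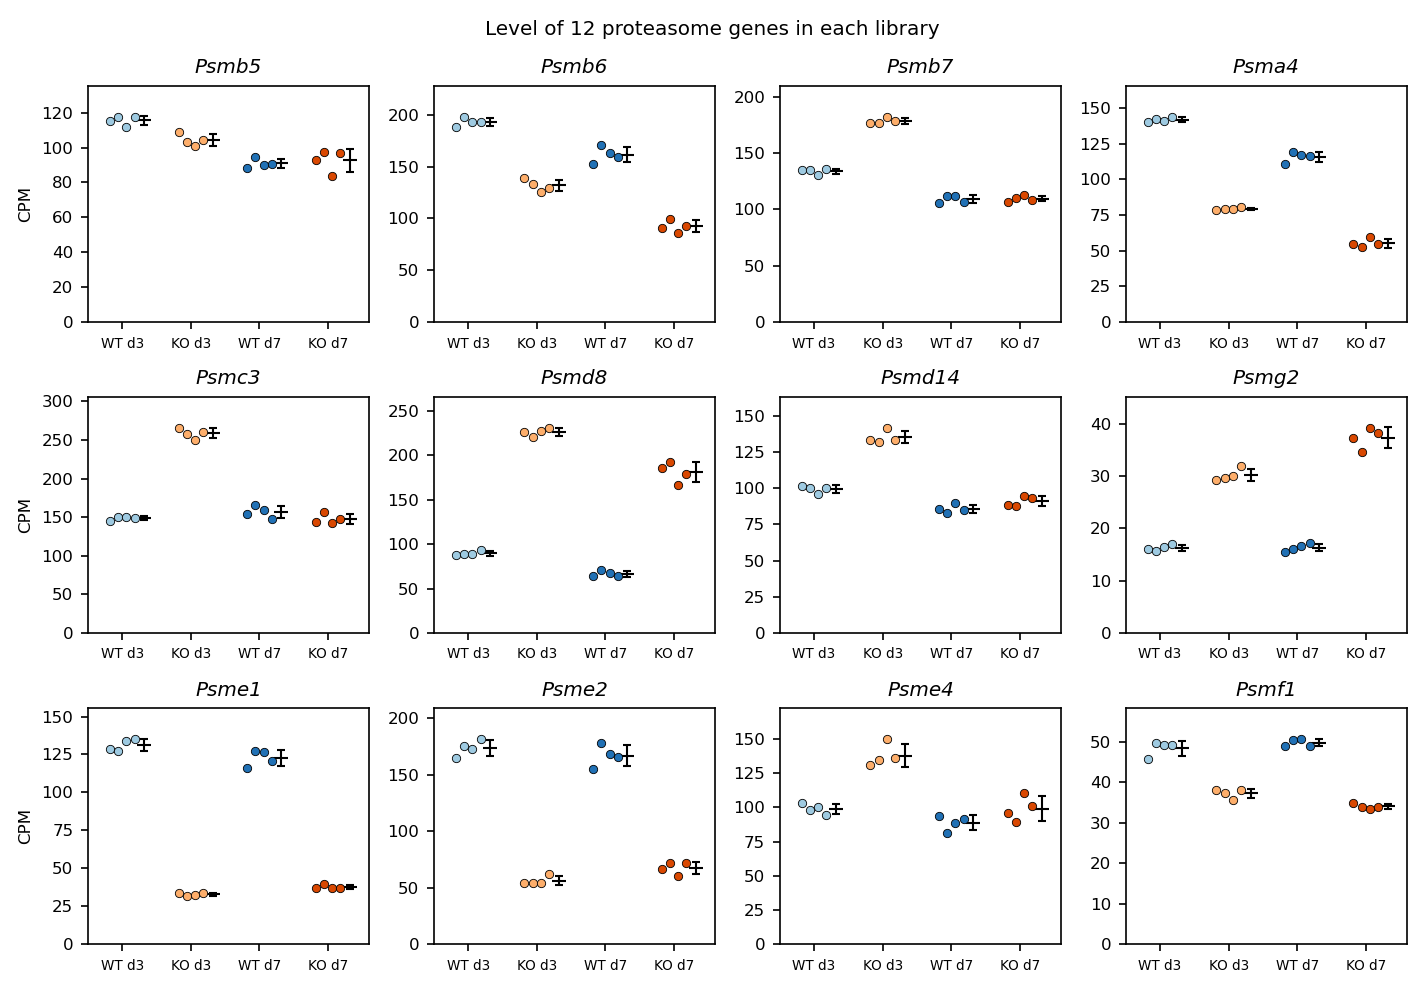
CPM (vertical axes, from 0) of 12 members in each of the 16 libraries, by group, with a bar for the mean and whiskers for the SD beside each set of 4 points. The libraries of a group lie close together in each panel. Psmc3 stands out in KO at day 3 (250.7 to 266 CPM), and Psme1 and Psme2 lie low in both KO groups (31.3 to 71.8 CPM).

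The regulatory particle recognises, unfolds and feeds substrates. Of its 17 genes, 12 were higher and 3 lower in KO at day 3, beside 43% and 43.4% of all genes. With the authors' library sizes all 17 were higher, as were 8677 of all 13474 genes. At day 7 the counts were 8 and 8, beside 41.7% and 44.3% of all genes. With those sizes they were 15 and 0, beside 9087 and 2969 of all 13474 genes. The class median was 0.29 on the log2 scale at day 3 and 0.02 at day 7. From day 3 to day 7 all but Psmc3 fell in WT and all 17 fell in KO, with medians of -0.29 and -0.59. Of all genes, 34.9% fell in WT and 39.3% in KO. The interaction was negative for 14 and positive for none of the 17, beside 33.5% and 32.5% of all genes.

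Among the 6 ATPase genes, Psmc2, Psmc3, Psmc4 and Psmc6 were higher in KO at day 3, by 0.37 to 0.80 on the log2 scale. Psmc3 (chr2:91054016-91059438, plus strand) had the widest interaction among members that passed the test. It read 145, 149.9, 151 and 149 CPM in WT and 266, 258, 250.7 and 261 CPM in KO at day 3. The day 7 libraries read 155, 166, 159 and 148 CPM in WT and 144, 157, 143 and 147 CPM in KO. Only KO at day 3 was high, and the other 3 groups overlapped. The log2 fold change of KO against WT was 0.80 ± 0.04 at day 3 (adjusted p = 2.47e-18) and -0.09 ± 0.04 at day 7 (adjusted p = 0.0242), and the interaction was -0.89 ± 0.05 (adjusted p = 4.02e-15). The small day 7 value was 0.49 with the authors' library sizes and missed the threshold without library 10 of WT (-0.06, adjusted p = 0.143), without 10b (adjusted p = 0.058) and without 13 (adjusted p = 0.0698) or 15 of KO (adjusted p = 0.0663).

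Among the non-ATPase genes, Psmd8 (chr7:29174187-29180673, minus strand) had the highest difference of all members at both days. It encodes a lid subunit whose incorporation completes the lid in yeast. Its promoter, at chr7:29180624-29180923 on the minus strand, is shown as that of the widest rise and holds none of the motifs searched for, so no letters are in capitals.
Psmd8: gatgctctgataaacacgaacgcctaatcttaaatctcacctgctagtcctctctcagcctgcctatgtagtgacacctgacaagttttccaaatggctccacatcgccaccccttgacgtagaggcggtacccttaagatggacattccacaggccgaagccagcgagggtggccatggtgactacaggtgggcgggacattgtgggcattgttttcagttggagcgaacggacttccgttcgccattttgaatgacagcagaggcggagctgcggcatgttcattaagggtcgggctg
Psmd8 read 87.3, 88.4, 88.8 and 93.8 CPM in WT and 226, 221, 228 and 231 CPM in KO at day 3. By day 7 the values were 64.2, 71.3, 67.3 and 64.1 CPM in WT and 186, 193, 167 and 179 CPM in KO. The lowest KO library stood well above the highest WT library at each day. The difference was 1.34 ± 0.04 at day 3 (2.53-fold, adjusted p = 1.29e-22) and 1.44 ± 0.04 at day 7 (2.72-fold, adjusted p = 3.01e-23), and the interaction was 0.10 ± 0.06 (adjusted p = 0.11). The interaction passed the test with the authors' library sizes (0.18, adjusted p = 0.0184), relative to the chromosome median (0.18, adjusted p = 0.00742), with the filter of at least 10 CPM (adjusted p = 0.023), and without library 15 of KO or library 10 of WT at day 7 (adjusted p = 0.015 and 0.0348).

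Psmd1 (chr1:86064619-86139295, plus strand), the gene of a large scaffold subunit of the base, changed direction between days. It read 261, 257, 252 and 256 CPM in WT and 309, 318, 316 and 314 CPM in KO at day 3. Values at day 7 were 225, 226, 229 and 224 CPM in WT and 184, 179.8, 185 and 176 CPM in KO. KO was above WT without overlap at day 3 and below it without overlap at day 7. The log2 fold changes were 0.29 ± 0.03 (adjusted p = 8.38e-11) and -0.32 ± 0.03 (adjusted p = 1.76e-11), the latter 0.26 with the authors' library sizes, and the interaction was -0.61 ± 0.04 (adjusted p = 6.58e-14). Psma7, Psmc3 and Psmd6 were the other members called higher at day 3 and lower at day 7, 4 in all beside 5.68% of all genes. With the authors' library sizes all 4 were higher at day 7 as well (0.26 to 0.49).

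Psmd14 (chr2:61711694-61800376, plus strand) encodes the deubiquitinase that cuts ubiquitin chains from arriving substrates. It read 102, 100.4, 95.7 and 100.1 CPM in WT and 134, 132, 142 and 134 CPM in KO at day 3. At day 7 it read 85.5, 83.3, 89.7 and 84.7 CPM in WT and 88.2, 88.1, 95.01 and 93.1 CPM in KO. The groups were apart at day 3 and overlapped at day 7. The difference was 0.45 ± 0.03 at day 3 (adjusted p = 1.29e-12) and 0.09 ± 0.04 at day 7 (adjusted p = 0.026), and the interaction was -0.36 ± 0.05 (adjusted p = 3.48e-07). The day 7 value turned to -0.04 with total counts only and missed the threshold without library 10 (adjusted p = 0.0739) or 11 (adjusted p = 0.0544) of WT and without 15 (adjusted p = 0.0921) or 16 (adjusted p = 0.0694) of KO. Psmd7, the gene of its inactive partner in the lid, was at 0.18 ± 0.03 and 0.07 ± 0.03. Psmd2, another large base subunit, and Psmd4, a ubiquitin receptor, were at 0.52 ± 0.03 and 0.09 ± 0.04 at day 3.

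The relation between both particles can be read only per length. Summed CPM per kilobase of regulatory over core particle genes was 0.781 ± 0.00304 (SD, n = 4) in WT and 0.986 ± 0.00889 in KO at day 3. At day 7 the ratio was 0.780 ± 0.0147 in WT and 0.928 ± 0.0117 in KO. The ratio was the same in WT at both days within its spread and higher in every KO library than in any WT library, and being taken within a library it does not move with the scaling. Among the 14 core genes other than Psma8, levels per kilobase had a coefficient of variation of 41.5% in WT and 31.3% in KO at day 3, and 41.1% and 37.3% at day 7. The highest gene was 5.04 times the lowest in WT at day 3 (Psmb4 over Psma1), 2.77 times in KO (Psmb4 over Psma4), and 4.79 and 3.37 times at day 7.

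The core particle chaperones were higher in KO throughout. All 4 core particle chaperone genes were higher in KO at both days, as were 32% of all genes. Their median was 0.70 at day 3 and 0.82 at day 7. They were also higher with the authors' library sizes, while relative to the chromosome median Psmg4 lost its call at day 3 (0.02). Psmg1 and its partner Psmg2, whose products pair to build the alpha ring, were at 0.59 ± 0.05 and 0.89 ± 0.05 at day 3. Psmg3 and Psmg4, whose products form another pair, were at 0.45 ± 0.06 and 0.80 ± 0.07.

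Psmg2 (chr18:67641599-67654162, plus strand) read 15.97, 15.6, 16.5 and 16.9 CPM in WT and 29.3, 29.7, 30.1 and 31.8 CPM in KO at day 3. The day 7 libraries read 15.5, 16.03, 16.6 and 17.2 CPM in WT and 37.2, 34.6, 39.2 and 38.2 CPM in KO. WT was level between days while KO was higher at day 7 without overlap. The difference grew from 0.89 at day 3 (adjusted p = 7.48e-16) to 1.19 ± 0.05 at day 7 (adjusted p = 5.88e-19), an interaction of 0.30 ± 0.07 (adjusted p = 0.000596). Relative to the chromosome median the difference was 0.25 and 0.56, beside medians of 0.27 and 0.37 over the 4 genes.

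Psmg4 (chr13:34162964-34178172, plus strand), at a lower level, read 6.11, 6.20, 6.63 and 6.82 CPM in WT and 11.01, 11.3, 10.6 and 12.1 CPM in KO at day 3. By day 7 the values were 6.17, 6.61, 5.92 and 6.34 CPM in WT and 12.9, 12.8, 12.8 and 13.4 CPM in KO. KO was higher without overlap at both days. The difference was 0.80 ± 0.07 at day 3 (adjusted p = 6.42e-12) and 1.05 ± 0.07 at day 7 (adjusted p = 1.42e-14). The interaction of 0.25 ± 0.10 (adjusted p = 0.0264) missed the threshold without library 3, 4, 7 or 10b, with an adjusted p of 0.0534, 0.0586, 0.0566 and 0.0597 in that order.

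The chaperones of the regulatory particle did not share a direction under TMM. Psmd5 (chr2:34852089-34870962, minus strand) read 69.5, 69.1, 69.1 and 65.9 CPM in WT and 108, 105, 107 and 111 CPM in KO at day 3. Values at day 7 were 61.9, 64.5, 64.6 and 61.0 CPM in WT and 63.1, 67.6, 66.5 and 66.4 CPM in KO. KO was higher without overlap at day 3, and the groups overlapped at day 7. The difference was 0.65 ± 0.03 at day 3 (adjusted p = 1.15e-16) and 0.07 ± 0.04 at day 7 (adjusted p = 0.0856), with an interaction of -0.59 ± 0.05 (adjusted p = 1.82e-11). The day 7 value passed the test with RLE size factors (0.08, adjusted p = 0.0479), with DESeq2 (0.08, adjusted p = 0.0399), relative to the chromosome median (0.08, adjusted p = 0.0334) and without library 13 of KO (0.09, adjusted p = 0.0334), and was 0.65 with the authors' library sizes. Psmd9 was at 0.18 ± 0.04 at day 3, and Psmd10, the gene of gankyrin, was lower at -0.63 ± 0.06 and -0.71 ± 0.06 at both days under TMM. With the authors' library sizes Psmd10 was at -0.13 at both days and not called (adjusted p = 0.0612 and 0.0724).

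**Figure D4:**
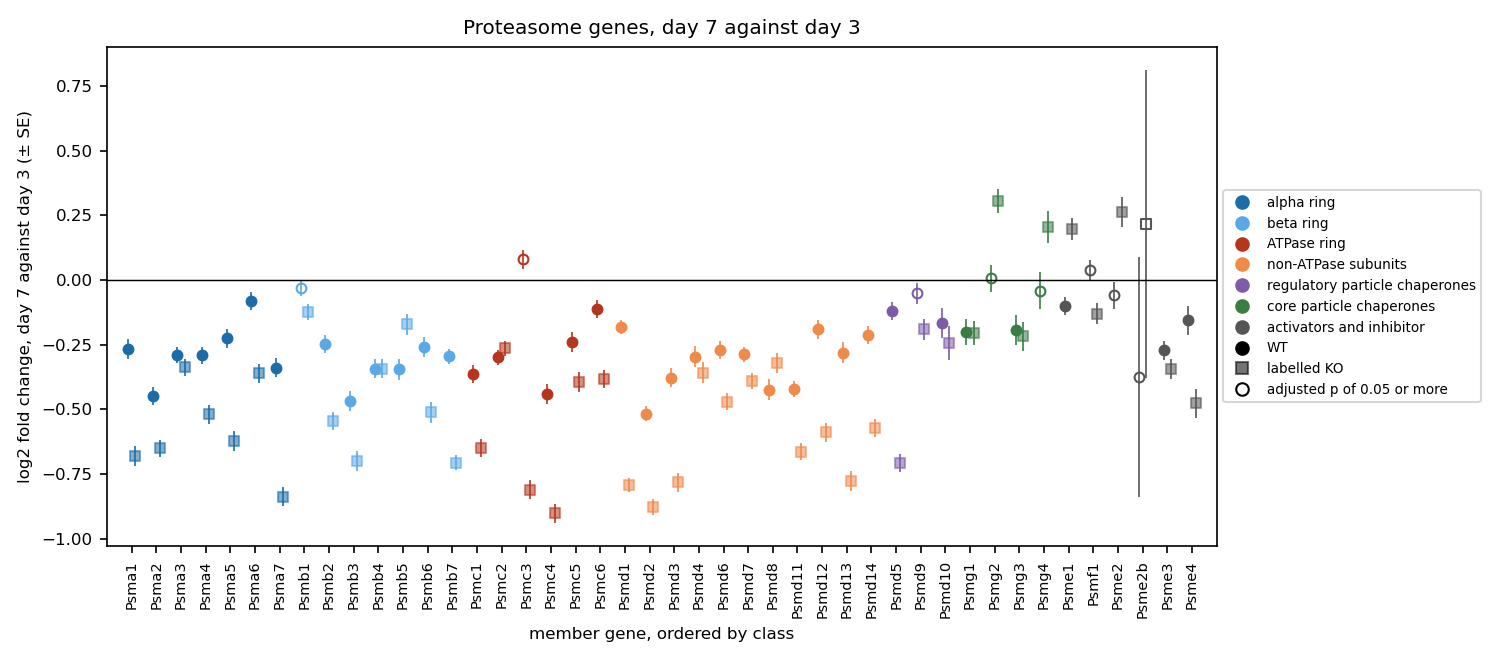
Log2 fold change of day 7 against day 3 (vertical axis, ± SE) for 44 members in order of class, with circles for WT and squares for KO, filled where the adjusted p was under 0.05. Psma8 is left off. Core and regulatory particle genes lie below 0 except Psmc3 in WT, and Psmg2, Psmg4, Psme1 and Psme2 lie above 0 in KO.

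Psme1 (chr14:55578494-55581527, plus strand) and Psme2 (chr14:55587440-55591101, minus strand) encode the alpha and beta subunits of an interferon-inducible activator ring that caps the core particle and is known for its part in antigen processing. The promoter of Psme1, at chr14:55578244-55578543 on the plus strand, is shown because its gene was 4.02-fold lower and because it carries the core of an interferon-stimulated response element, in capitals, 9 bases after the start. That motif was added to the search after the data had been seen. The promoter of Psme2, also far lower in KO, was searched for it and held no match.
Psme1: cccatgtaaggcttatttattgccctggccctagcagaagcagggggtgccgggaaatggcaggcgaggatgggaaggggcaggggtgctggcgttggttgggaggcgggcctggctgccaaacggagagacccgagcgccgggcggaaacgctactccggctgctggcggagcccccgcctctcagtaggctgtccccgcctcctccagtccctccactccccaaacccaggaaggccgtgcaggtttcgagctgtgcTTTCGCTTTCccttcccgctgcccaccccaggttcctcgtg
Psme1 read 129, 127, 134 and 135 CPM in WT and 33.6, 31.3, 32.6 and 33.4 CPM in KO at day 3. At day 7 it read 116, 127, 126 and 121 CPM in WT and 37.0, 39.2, 36.7 and 36.9 CPM in KO. No KO library came near a WT library at either day. KO differed from WT by a log2 fold change of -2.01 ± 0.04 at day 3 (4.02-fold lower, adjusted p = 6.27e-27) and -1.71 ± 0.04 at day 7 (3.27-fold lower, adjusted p = 1.36e-25), and the interaction was 0.30 ± 0.05 (adjusted p = 2.68e-05).

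Psme2 read 165, 175, 172 and 182 CPM in WT and 54.1, 54.0, 53.9 and 62.5 CPM in KO at day 3. The day 7 libraries read 155, 178, 168 and 166 CPM in WT and 66.3, 71.5, 59.9 and 71.8 CPM in KO. The groups were as clearly apart as for Psme1. KO differed from WT by a log2 fold change of -1.63 ± 0.06 at day 3 (3.10-fold lower, adjusted p = 3.43e-18) and -1.31 ± 0.05 at day 7 (2.48-fold lower, adjusted p = 1.73e-16), with an interaction of 0.32 ± 0.08 (adjusted p = 0.000891). Over days in KO, Psme1 rose by 0.20 ± 0.04 and Psme2 by 0.26 ± 0.06. In WT the change was -0.10 ± 0.04 for Psme1 (adjusted p = 0.0148) and -0.06 ± 0.05 for Psme2 (adjusted p = 0.337). The Psme1 fall in WT was lost without library 3, 4 or 9 (adjusted p of 0.0521, 0.0568 and 0.0837).

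Genes that act with this activator were also low in the libraries labelled KO. Psmb8, Psmb9 and Psmb10, the inducible catalytic genes, stood at -4.53 ± 0.08, -4.39 ± 0.13 and -1.58 ± 0.06 at day 3 and -3.29 ± 0.07, -3.49 ± 0.10 and -1.53 ± 0.06 at day 7. Per kilobase, their sum was 23.9% ± 0.213 (SD, n = 4) of that of Psmb5, Psmb6 and Psmb7 in WT at day 3 and 3.41% ± 0.326 in KO. At day 7 the share was 31.9% ± 0.953 in WT and 6.504% ± 0.645 in KO. Tap1 and Tap2, the genes of the peptide transporter into the endoplasmic reticulum, were at -4.52 ± 0.08 and -3.91 ± 0.06 at day 3 and -2.28 ± 0.07 and -2.75 ± 0.05 at day 7. Irf1, an interferon-responsive transcription factor gene, was lower at both days (-1.11 ± 0.04 and -1.37 ± 0.04), while Nlrc5, a regulator of antigen presentation genes, was higher (0.38 ± 0.12 and 0.45 ± 0.10). The macrophage and myeloid markers, whose sums are given above, were lower in the same comparison. This held for 14 of 14 measured at day 3 and 13 of 14 at day 7, beside 43.4% and 44.3% of all genes. The part of these markers in the fall of Psme1 and Psme2 was not tested.

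The remaining activators and the inhibitor changed less. Psme3 (chr11:101316251-101323530, plus strand), the gene of a nuclear activator ring, read 153, 149, 150.4 and 149 CPM in WT and 135, 137, 142 and 153 CPM in KO at day 3. By day 7 the values were 124, 125, 128 and 122 CPM in WT and 118, 112, 112 and 104 CPM in KO. The groups overlapped at day 3, where KO library 8 was as high as WT, and were apart at day 7. The difference was -0.09 ± 0.04 at day 3 (adjusted p = 0.034) and -0.16 ± 0.04 at day 7 (adjusted p = 0.000365), but 0.41 and 0.42 with the authors' library sizes. The day 3 call was lost without any one of the libraries of that day other than KO library 8, with adjusted p from 0.0508 (without WT library 4) to 0.136 (without KO library 5).

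Psme4 (chr11:30771775-30880361, plus strand), the gene of a large activator that acts on histones in germ cells and damaged cells, read 103, 98.1, 100.2 and 94.7 CPM in WT and 131, 135, 150.3 and 136 CPM in KO at day 3. Values at day 7 were 94.0, 81.3, 88.6 and 91.9 CPM in WT and 95.9, 89.1, 111 and 101 CPM in KO. KO was higher without overlap at day 3 and overlapped WT at day 7. The difference was 0.48 ± 0.06 at day 3 (adjusted p = 4.16e-08) and 0.16 ± 0.06 at day 7 (adjusted p = 0.0134), with an interaction of -0.32 ± 0.08 (adjusted p = 0.00117). The day 7 call was lost without WT library 10 (adjusted p = 0.0545) or KO library 15 (0.10, adjusted p = 0.0674). Psme4 fell over days in WT by 0.16 ± 0.06, a call lost without library 1 (adjusted p = 0.0592) or 10 (adjusted p = 0.0782).

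Psmf1 (chr2:151716062-151741310, minus strand), the gene of a protein first described as a proteasome inhibitor, was among the 8 members not called over days in WT. It read 45.8, 49.7, 49.2 and 49.3 CPM in WT and 38.1, 37.4, 35.7 and 38.1 CPM in KO at day 3. At day 7 it read 49.1, 50.5, 50.8 and 49.0 CPM in WT and 35.0, 34.0, 33.3 and 34.0 CPM in KO. KO was lower without overlap at both days. The difference was -0.38 ± 0.04 at day 3 (adjusted p = 5.51e-10) and -0.55 ± 0.04 at day 7 (adjusted p = 1.85e-13), but 0.12 and 0.03 with the authors' library sizes. The interaction was -0.17 ± 0.06 (adjusted p = 0.00876).

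Psme2b (chr11:48945352-48946410, minus strand), a single-exon gene named as a copy of Psme2, was uncertain. It read 2.45, 0.568, 1.02 and 0.894 CPM in WT and 0.738, 0.593, 0.377 and 0.555 CPM in KO at day 3. The day 7 libraries read 0.731, 1.16, 1.07 and 0.792 CPM in WT and 0.505, 0.345, 0.294 and 1.63 CPM in KO. Library 1 of WT and library 16 of KO stood far above the rest of their groups. No comparison passed the test (adjusted p = 0.0604 at day 3 and 0.383 at day 7). It passed at day 7 without library 16 of KO (-1.29, adjusted p = 0.0127), and at day 3 without that library (adjusted p = 0.00917) or without library 1b of WT (-1.33, adjusted p = 0.0179). The sources used here do not say how reads matching both genes were treated, and 261 of its bases overlap an exon of 9930111J21Rik1 on the same strand.

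Genotype differences of the core and regulatory particle genes other than Psma8 went with the chromosome that carries them. Whole chromosomes differed between the genotypes: the median log2 fold change of all genes at day 3 was 0.82 on chromosome 13, 0.68 on chromosome 4, 0.68 on chromosome 18 and 0.41 on chromosome 7, and -0.46 on chromosome 12 and -0.44 on chromosome 11. All 4 members on chromosome 7 (Psma1, Psmc4, Psmd8 and Psmd13) were higher in KO at both days, by 0.72 to 1.34 at day 3, though relative to the chromosome Psma1, Psmc4 and Psmd13 were at 0.07, -0.04 and -0.02 at day 7 and not called. Chromosome 12 carried Psma3, Psma6 and Psmc1, all lower at both days under TMM, at -0.12 to -0.20 at day 3, where all 3 were higher relative to their chromosome (0.28 to 0.36) and with the authors' library sizes (0.30 to 0.38). Over the 31 core and regulatory genes other than Psma8, the gene's change and the median of its chromosome had a Pearson r of 0.79 and a Spearman rho of 0.84 at day 3, and 0.74 and 0.86 at day 7. Over all 45 members, with Psma8, the chaperones, the activators and the inhibitor included, r was 0.06 and 0.13 and rho was 0.65 at both days. Over all 13474 genes the r was 0.22 and 0.18. The points share libraries and chromosomes, and each median includes the member itself, so these values are descriptions.

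Taking the chromosome median away narrowed the SD over those 31 genes from 0.47 to 0.29 at day 3 and from 0.47 to 0.32 at day 7. Over all 45 members it did not narrow, at 1.25 before and 1.28 after at day 3, and 1.02 and 1.03 at day 7. For changes over days in WT the r was 0.27 and the SD stayed at 0.13. Relative to the chromosome median, all 17 regulatory particle genes were higher in KO at day 3 and 6 core genes were higher and 4 lower. Over all members the counts were then 29 higher and 8 lower at day 3, and 16 and 14 at day 7. Of all 13474 genes on that scale, 5899 were higher and 5464 lower at day 3, and 5652 and 5766 at day 7. Psme1 and Psme2, on chromosome 14, lay far below their chromosome's median of -0.12, and Psma4 lay 0.58 below that of chromosome 9, while Psmg4 was at 0.02 and no longer called at day 3. What shifted whole chromosomes was not tested.

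**Figure D5:**
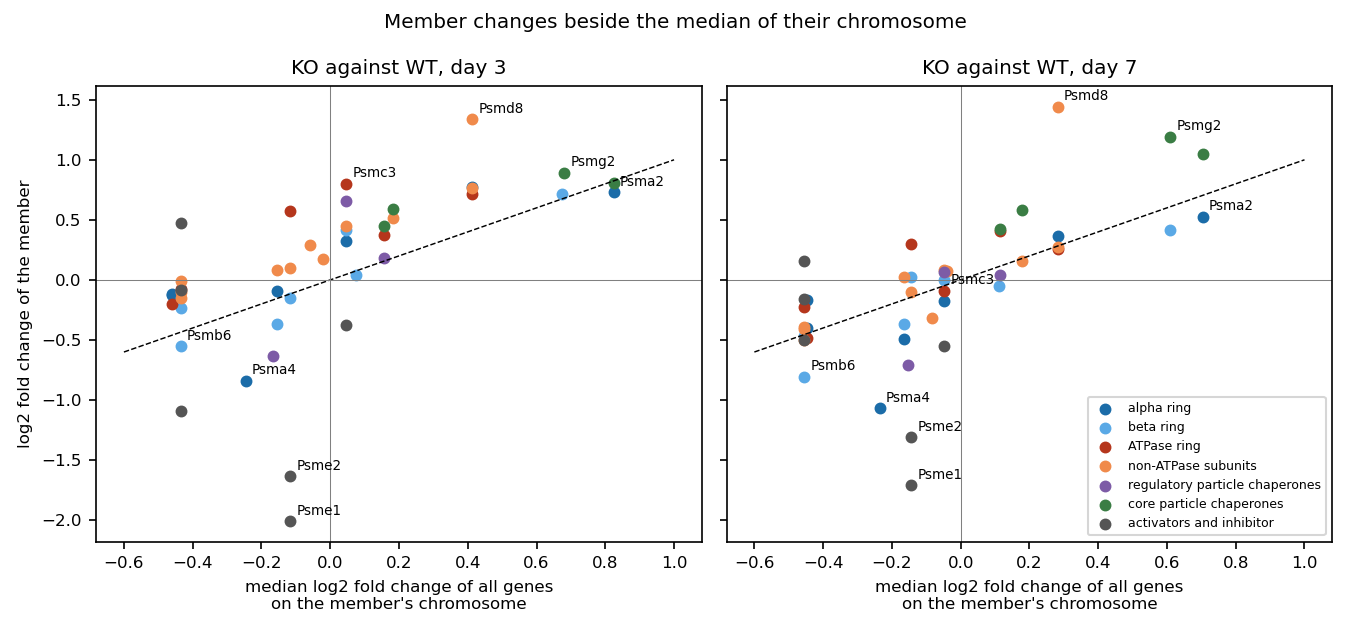
Log2 fold change of KO against WT for 44 members (vertical axis) beside the median over all genes on the same chromosome (horizontal axis), at day 3 and day 7, coloured by class. The dashed line marks equal values. Core and regulatory particle genes rise with the chromosome median, 25 of the 31 lying above the line at day 3 and 15 at day 7. Psma4 lies below the line, and Psme1 and Psme2 lie far below it.

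RefSeq promoters were matched for 37 of the 45 members, and each motif was searched on both strands of the 300 bases. The antioxidant response element core TGACNNNGC was in 6 members, 16.2% of those matched (Psmb5, Psmb6, Psmc6, Psmd9, Psmd12 and Psme4), beside 13.99% of all 27025 genes. The CCAAT box was in 12 (32.4%), beside 41.1% of all genes. The E-box CACGTG was in 3 (8.11%), beside 8.09%, and the composite core TGATGNAA in 1 (2.70%), beside 4.51%. The interferon-stimulated response element core, TTTC and TTTC with 2 bases between, was in 5 (13.5%), namely Psmb3, Psmd4, Psmd9, Psmg4 and Psme1, beside 3.99%. Of these 5, Psme1 and Psmb3 were lower in KO at both days under TMM and Psmg4 was higher, so members with this motif did not share a direction.

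Nfe2l1 and its helpers are known to raise proteasome gene transcription when the proteasome is inhibited. Of 11 genes of this response, 9 were higher in KO and 2 lower at both days under TMM, the scaling run for these genes, beside 32% of all genes called higher and 33.9% called lower at both days. Nfe2l1, the main factor, read 302 ± 5.92 CPM in WT and 359 ± 7.49 CPM in KO at day 3 (SD, n = 4). By day 7 the values were 257 ± 7.41 CPM in WT and 594 ± 26.7 CPM in KO. KO differed from WT by 0.25 ± 0.03 on the log2 scale at day 3 (adjusted p = 5.91e-08) and 1.21 ± 0.03 at day 7 (adjusted p = 1.98e-23), with an interaction of 0.96 ± 0.05. Nfe2l2 was at 0.23 ± 0.03 and 1.38 ± 0.03, and Ddi2, the gene of the protease that releases Nfe2l1 from the membrane, at 1.10 ± 0.05 and 1.45 ± 0.05. Ngly1, the gene of the enzyme that strips sugars from Nfe2l1, was lower, at -0.82 ± 0.05 and -0.46 ± 0.04. Nfe2l1 and Nfe2l2 rose from day 3 to day 7 in KO by 0.72 and 1.00, while 39 of the 45 members fell.

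Of 18 genes whose products bind the proteasome, help build it or deliver substrates to it, 17 were measured, and under TMM 13 were higher and 2 lower in KO at day 3, and 12 and 4 at day 7. Of all genes, 43% were called higher and 43.4% lower at day 3, and 41.7% and 44.3% at day 7. Uchl5 and Usp14, the genes of deubiquitinases that bind the regulatory particle, were at 1.42 ± 0.05 and 0.99 ± 0.06 at day 3 and at 0.53 ± 0.06 and 0.57 ± 0.07 at day 7. Adrm1, a ubiquitin receptor that anchors Uchl5, was at 0.38 ± 0.04 at day 3 and 0.03 ± 0.04 at day 7. Pomp, the maturation factor of the core particle, was at 0.17 ± 0.04 and -0.18 ± 0.04. Rad23b and Ubqln1, which carry ubiquitinated proteins to the proteasome, were at 1.35 ± 0.03 and 1.19 ± 0.03 at day 3. All genes on the chromosomes of Usp14 (18), Rad23b (4) and Ubqln1 (13) had medians of 0.68, 0.68 and 0.82 at day 3. At day 7 the median of chromosome 18 was 0.61, above the 0.57 of Usp14. On chromosome 1, which carries Uchl5, the medians were -0.06 and -0.08. Over the 17 genes the median was 0.38 at day 3 and 0.49 at day 7, and 0.30 and 0.15 after the chromosome medians were subtracted. From day 3 to day 7, 11 of the 17 fell in WT and 14 fell in KO, and the interaction was negative for 12, beside 34.9%, 39.3% and 33.5% of all genes called so.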

How the data were processed

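RNA of 16 wells was read as poly(A) strand-specific paired-end libraries. The deposited table held whole-number read counts per gene. Per the submitters' processing notes the tools were STAR 2.4.2a, featureCounts and edgeR, on mm10. Beside the counts the authors deposited a normalized signal per gene and library, labelled cpm, whose columns summed to 741758 to 1341926. It was used only to derive the authors' library sizes for an alternative scaling. The gene lengths came from the same table.

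Counts were tested with edgeR 4.0.16 (R 4.3.3, limma 3.58.1): quasi-likelihood fit with robust dispersion over all 16 libraries, TMM scaling (factors 0.949 to 1.05), 4 group means and 5 contrasts. P-values were adjusted by Benjamini-Hochberg over 13474 genes, and a call is an adjusted p under 0.05, two-sided. The filter on low counts removed 0 genes, the lowest summed count being 105. Counts of a gene varied by 4.25% between wells beyond counting error (common dispersion 0.00181). No pair of libraries agreed within sampling noise (chi-square per degree of freedom 2.33 to 17.9). CPM are counts per 1000000 of the TMM-scaled library size. SE is that of the log2 fold change. The method was tested on simulated counts.

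Alternatives were RLE, total-count, upper-quartile and authors' scalings, no filter and a stricter filter of 10 CPM, DESeq2 1.42.0, fits of the compared groups alone, summing the libraries named 1 and 1b and 10 and 10b, leaving out each library, changes relative to the chromosome median, and a test against a 1.2-fold change. The members, lists and tests were chosen with earlier results of these data known. Library values are given for the catalytic genes, Psmd14, the activators and Psmf1, and for the 3 members with the highest and the 3 with the lowest change at each day and in the interaction, among those with at least 1 CPM. Psma8, under 1 CPM in most libraries, was added after its values were seen. The table's Excel-altered symbols (22 turned into dates) held no member. A gene of the immunoproteasome list is not reported here.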

Additional observations from a re-analysis of the deposited data

Results flagged for a closer look

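In 8 of the 68 groups of 4 libraries examined, 1 library stood far from the other three, a mark that chance gives in about 5% of such groups. The values were 131 CPM for Psmb7 in WT library 3 and 65.9 CPM for Psmd5 in WT library 4 at day 3, both low, and 45.8 CPM for Psmf1 in WT library 1 at day 3, also low. The high ones were 142 CPM for Psmd14 in KO library 7 and 62.5 CPM for Psme2 in KO library 8 at day 3, and 39.2 CPM for Psme1 in KO library 14 at day 7. KO library 16 at day 7 stood high for Psme2b at 1.63 CPM and for Psmg4 at 13.4 CPM.

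For 14 of the members given by library, the genotype difference itself differed between days (edgeR interaction, adjusted p under 0.05). Of all genes, 66% had a called interaction. Some of the 14 members were given by library because of their interaction values, so the count follows partly from that choice. The log2 difference of differences was positive for Psmb5 (0.17), Psme1 (0.30), Psme2 (0.32), Psmg2 (0.30) and Psmg4 (0.25). It was negative for Psmb6 (-0.25), Psmb7 (-0.41), Psma4 (-0.23), Psmc3 (-0.89), Psmd1 (-0.61), Psmd14 (-0.36), Psmd5 (-0.59), Psme4 (-0.32) and Psmf1 (-0.17).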

How the results depend on the processing

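Scaling set the direction of small genotype differences, while the fall over days kept its direction under every scaling. For KO against WT at day 3 the members' median was 0.030 with total counts only, 0.046 with the upper quartile, 0.60 with the authors' library sizes, 0.14 with the stricter filter and 0.28 relative to the chromosome median. With the authors' sizes 38 members were higher and 4 lower, beside 8677 and 3220 of all 13474 genes, and 11 members were called in the opposite direction. Among the 17 genes given by library Psmb5 (0.35), Psme3 (0.41) and Psmf1 (0.12) reversed. Relative to the chromosome median 8 were lower, beside 5464 of all genes, and 7 members were called in the opposite direction. Of the genes given by library, Psmb5 (0.019) and Psme3 (0.38) then reversed. Against a 1.2-fold change 8 were lower, beside 4592 of all genes. At day 7 the median was -0.22 with total counts, -0.13 with the upper quartile, 0.49 with the authors' sizes, -0.046 with the stricter filter and -0.024 relative to the chromosome median. With the authors' sizes 34 were higher and 5 lower, beside 9087 and 2969 of all genes. Relative to the chromosome median 14 were lower, beside 5766 of all genes. Against a 1.2-fold change 9 were higher, beside 4328 of all genes. At day 7 Psmb5 (-0.10), Psmb7 (-0.12), Psmd14 (-0.041) and Psmd5 (-0.062) reversed with total counts, and Psmb5 (-0.012) and Psmb7 (-0.035) with the upper quartile. Called in the opposite direction at day 7 were 12 members with the authors' sizes and 5 relative to the chromosome median. Of the genes given by library, Psme3 (0.42), Psmf1 (0.030), Psme2b (0.082), Psmc3 (0.49) and Psmd1 (0.26) reversed with the authors' sizes, and Psme3 (0.28) relative to the chromosome median.

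Over days in WT, 2 members rose with RLE, total counts, upper quartile, DESeq2 and the compared groups alone, beside 4508 to 4761 of all genes. The median was -0.35 with the authors' sizes, and 11 members fell by the test against a 1.2-fold change. Psmf1 (-0.052), Psmg2 (-0.085) and Psmc3 (-0.012) reversed with the authors' sizes, and Psmg2 also with summed libraries (-0.00091) and relative to the chromosome median (-0.024). In KO the median was -0.43 with total counts and with the compared groups alone. Against a 1.2-fold change 0 members rose in KO, beside 3920 of all genes. The interaction was positive for 3 members with total counts, beside 3928 of all genes. Against a 1.2-fold change it was positive for 0 members and negative for 13, beside 2938 and 2744 of all genes. The median interaction was -0.26 with total counts and -0.12 with the authors' sizes, which also turned Psme3 to 0.0035. The cause of these changes was not tested, except that a test against a 1.2-fold change asks for larger effects.

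Leaving out each library in turn moved Psmb7 at day 7 between -0.010 and 0.018, and Psmg2 over days in WT between -0.018 and 0.031. Psme2b ranged from -0.61 to 0.18 over days in WT, from -0.57 to 0.47 in KO and from -0.19 to 0.85 in the interaction. Between 1 and 2 members rose over days in WT, and the KO median lay between -0.47 and -0.38. Members called higher at day 3 numbered 23 to 24 and lower 14 to 18, and over days 33 to 36 fell in WT and 39 in KO. In the fit of all libraries these calls were made for 43%, 43.4%, 34.9% and 39.3% of all genes, in that order. Over all the alternatives, not only the left-out libraries, 2129 values for single genes given by library kept direction and call. Another 79 lost the call, 33 gained it and 32 reversed direction. No paired analysis was possible because the replicate names are not shared between groups. Wells of 1 culture per group limit what the p-values cover, and depth limits Psma8 and Psme2b.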

Other observations

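Ubiquitin genes supply the tag that the proteasome reads. Of 6 listed genes 2 were higher and 2 lower in KO at day 3, and 1 and 1 at day 7, under TMM. Of all genes, 43% were called higher and 43.4% lower at day 3, and 41.7% and 44.3% at day 7. Rps27a, which encodes ubiquitin fused to a ribosomal protein, was lower at both days (log2 fold change -0.50 ± 0.04 and -0.65 ± 0.04). Ubb, a polyubiquitin gene, was lower at day 3 (-0.48 ± 0.09), and Uba1, the gene of the main ubiquitin-activating enzyme, was at 0.19 ± 0.03 at day 3 and fell over days in KO by 0.44 on the log2 scale. Of the 12 stromal markers, 4 were higher and 7 lower in KO at day 3, and 5 and 7 at day 7. Of 4 endothelial markers only Kdr was measured, at 2.08 CPM in KO and 0.285 CPM in WT at day 3. Of the 8 osteoblast markers, 1 was higher and 5 lower in KO at day 3, and 7 were higher and 1 lower at day 7.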
